A study of Homo sapiens with 4 samples.

Results

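PAX2, PAX8, LHX1, SIX2, EYA1, WT1, SALL1, and GATA3 encode transcriptional regulators of the embryonic kidney, and their mRNA levels were examined in 293T cells that had received a control RNA or a miRNA mimic. The 8 genes were taken by name from the 58243 Ensembl genes with a value in each library, and all 8 were found by their Ensembl identifiers. The 293T line was derived from cultured human embryonic kidney cells by transformation with adenovirus DNA and carries the SV40 large T antigen, so it is 1 cell line and not kidney tissue. A mimic is a short RNA duplex made to deliver a chosen mature miRNA, here miR-1 (known from muscle), miR-122 (liver), or miR-124 (neurons). The 4 libraries were control RNA, miR-1, miR-122, and miR-124, with 1 library each, all from transfected 293T cells at 48 h according to the sample labels, whereas the methods of the study give a shorter time. With 1 library per condition no difference below has a replicate check and no test between conditions was possible.

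The kidney forms when the nephric duct sends a bud into the metanephric mesenchyme, whose nephron progenitors renew themselves and condense into nephrons. PAX2 and PAX8 are paired-box factors that together specify the nephric lineage, LHX1 is a LIM homeodomain factor of the duct and the early nephron, and GATA3 is a zinc finger factor of the duct. SIX2 keeps nephron progenitors from differentiating, EYA1 is a phosphatase and coactivator that works with SIX2 and its relatives, SALL1 is a zinc finger repressor of the progenitors, and WT1 is a zinc finger factor of the mesenchyme and later of podocytes.

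The sequences of the mimics and of their matches in the members are shown first, because they say which member carries a place where a mimic could pair. Mature sequences are from RefSeq (GRCh38.p14), from MIR1-1 at chr20:62554351-62554372 on the plus strand and MIR122 at chr18:58451088-58451109 on the plus strand, with the seed (bases 2 to 8) in capitals. The entry of miR-124 was not matched in that table.
hsa-miR-1-3p: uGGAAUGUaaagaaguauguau
hsa-miR-122-5p: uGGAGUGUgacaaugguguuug
The words pairing with the 3 seeds are ACATTCC for miR-1, ACACTCC for miR-122, and GTGCCTT for miR-124, and they were searched on the sense strand, taking for every gene its longest 3′ UTR in the annotation. Of 15114 genes above the detection threshold with an annotated 3′ UTR, 14.9% held the miR-1 word, 10.4% the miR-122 word, and 18.0% the miR-124 word. Among the 8 members the words were found in PAX8, WT1, and EYA1. LHX1, SIX2, SALL1, GATA3, and PAX2 had none of the 3 words. Of these, only LHX1 also lacked the 6-letter words, which leave out the first letter. The 6-letter miR-124 word was found 3 times in SIX2 and 1 time each in SALL1, GATA3, and PAX2. SALL1 had 1 such word of miR-1 and PAX2 had 2 of miR-122. The 6-letter words were in 40.4% (miR-1), 42.0% (miR-122), and 54.2% (miR-124) of all genes. Below, each word is shown with up to 8 bases on either side on the strand of the gene (GRCh38), with the match in capitals, including the final A where the match is an 8mer.
PAX8, miR-1 8mer: taaaacagACATTCCAcagggcct
PAX8, miR-122 7mer: attgcggcACACTCCctgtgtgg
WT1, miR-1 7mer: cttgtctaACATTCCcgaggtca
PAX2, miR-122 7mer-A1: gggctgccCACTCCActcctccc
The PAX8 matches lie at chr2:113217768-113217775 and chr2:113218401-113218407, and that of WT1 lies at chr11:32388546-32388552, all on the minus strand. The PAX2 match at chr10:100828720-100828726 on the plus strand is of the weaker 7mer-A1 kind, in which 6 letters of the word are followed by A. CACTCCA, the word of that kind, was found in 22.5% of all genes, counted also where it lies within an 8mer. PAX8 had 2 more matches of that kind for miR-122, and WT1 had 1 for miR-1. In EYA1 the miR-124 word was an 8mer, described with that gene. A match of letters is a description and does not show that the mimic acts there.

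Levels were taken from the FPKM values that the authors deposited, which are reads per kilobase of gene length, scaled to the library's total reads. The reads behind the values were recovered where every library's value was a whole multiple of 1 read (see the processing notes), and the library totals by which the values had been divided were between 5887055 (miR-122) and 9452232 (miR-1). The control RNA library had 6624306 and the miR-124 library 6465436. A gene was called detected above an FPKM of 0.004. In the control RNA library 24788 genes were detected. All members had at least 1 read in every library and 7 of the 8 were above 0.004 in all 4 libraries. The exception was PAX8, which was below it in the control RNA library. Fewer cells that make an mRNA and less mRNA per cell cannot be told apart in bulk RNA.

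Marker genes were looked up to check the label. Of 6 epithelial and mesenchymal markers, KRT8, KRT18, and VIM were at 26.5, 97.5, and 58.0 FPKM in the control RNA library, whereas CDH1 had 1 read and EPCAM 2. Of 5 neural markers NEFL was at 29.4 FPKM, NES at 6.59, and NEFM at 0.918, whereas NEFH had 3 reads. INA was at 0 in all 4 libraries. Some markers of other cell types were detected too. KRT17 of the squamous list was at 4.55 FPKM, MYOD1 of the muscle list at 1.71, and COL1A1 of the fibroblast and blood list at 3.27. CAV1, DES, and LUM of the same lists were at 1.18, 0.722, and 0.771 FPKM. Others of these lists, namely KRT5, TP63, MYOG, MYH7, COL1A2, and PTPRC, were at 0 in the control RNA library. Of 11 markers of the differentiated nephron, AQP2 and CDH16 were among those at 0 in all 4 libraries, and the summed FPKM of the 11 lay between 0.142 and 0.214. LRP2 held most reads of these, with 108 in the control RNA library (0.0692 FPKM), and AQP1 had 9 (0.0983 FPKM), both above EYA1 and PAX2 in FPKM. That order depends on gene length, which in the FPKM of EYA1 was 329598 bases against 9322 bases of exon. In reads EYA1 had 122, or 61 at a smaller length that also gave whole reads, and PAX2 had 12. The nephron markers were not compared per kilobase of exon, so their order against these members was not tested. Of 7 hepatocyte markers FGB was at 0 in all 4 libraries, and their summed FPKM lay between 0.0892 and 0.164. TTR had 23 reads and APOB 4 in the miR-1 library, and both were at 0 in the other libraries.

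SIX2 was the highest of the members in the control RNA library and PAX8 the lowest. SIX2 (ENSG00000170577, chr2:45005182-45009452, minus strand) had 7.07 FPKM from 200 reads with the control RNA, 8.30 from 335 with miR-1, 8.95 from 225 with miR-122, and 9.56 from 264 with miR-124. It was higher than 90.1% of detected genes. GATA3 (ENSG00000107485, chr10:8045378-8075198, plus strand) had 1.08 FPKM from 154 reads with the control RNA, 1.24 from 254 with miR-1, 1.17 from 149 with miR-122, and 1.26 from 176 with miR-124. These were the nephron progenitor factor and the duct factor, and for both the control RNA library was the lowest of the 4.

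LHX1 and EYA1 were highest in the control RNA library. LHX1 (ENSG00000273706, chr17:36936785-36944612, plus strand) had 1.23 FPKM from 64 reads with the control RNA, 0.865 from 64 with miR-1, 0.977 from 45 with miR-122, and 0.988 from 50 with miR-124. EYA1 (ENSG00000104313, chr8:71197433-71592025, minus strand) had 0.0559 FPKM from 122 reads with the control RNA, 0.0379 from 118 with miR-1, 0.0423 from 82 with miR-122, and 0.0338 from 72 with miR-124. The values of EYA1 would also be whole at 61, 59, 41, and 36 reads, and the larger numbers were used because their length, 329598 bases, is nearer to the annotated 394592. WT1 (ENSG00000184937, chr11:32387775-32435564, minus strand) had 0.372 FPKM from 118 reads with the control RNA, 0.332 from 150 with miR-1, 0.323 from 91 with miR-122, and 0.301 from 93 with miR-124. It too was highest with the control RNA.

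SALL1, PAX2, and PAX8 rested on few reads. SALL1 (ENSG00000103449, chr16:51135982-51152334, minus strand) had 13, 21, 13, and 16 reads in the order control RNA, miR-1, miR-122, and miR-124, or 0.127, 0.144, 0.143, and 0.161 FPKM. PAX2 (ENSG00000075891, chr10:100735396-100829944, plus strand) had 12, 27, 22, and 30 reads in the same order, or 0.0192, 0.0303, 0.0396, and 0.0492 FPKM. The control RNA library was the lowest for both, and for PAX2 each mimic library held more reads even where the library was smaller. PAX8 (ENSG00000125618, chr2:113215997-113278921, minus strand) had 1, 5, 4, and 2 reads, or 0.00240, 0.00840, 0.0108, and 0.00491 FPKM. PAX8 and PAX2 have overlapping roles in the nephric lineage. PAX8 was near the limit of detection in these cells, whereas PAX2 was above 0.004 in every library on about as few reads as SALL1.

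The length in the deposited values was close to the whole span of the gene, introns included, for several members, and the order of the members depended on it in part. For LHX1 the recovered length of 7827 bases was exactly the annotated distance from start to end, and for SIX2 the 4269 bases differed by 1 from that distance. GATA3, at 21594, was shorter than the annotated 29820. With the union of the annotated exons as the length in place of the span, SIX2 had 13.7 reads per kilobase of exon (scaled to the library total as in FPKM) in the control RNA library, GATA3 6.85, WT1 2.19, EYA1 1.98, LHX1 1.97, SALL1 0.311, PAX2 0.275, and PAX8 0.0205. EYA1, the longest gene, moved from place 6 to 4 and LHX1, of short span, from place 2 to 5. SIX2, PAX2, and PAX8 kept their places, and GATA3, WT1, and SALL1 moved by 1. With the smaller read numbers EYA1 would be at 0.988, below LHX1. By counting error (exact Clopper-Pearson, 95%), SIX2 was 2.0 times GATA3 (1.61 to 2.48) and GATA3 was 3.13 times WT1 (2.44 to 4.01) on this scale. With the larger read numbers of EYA1, WT1 and EYA1 differed by a ratio of 1.11 (0.853 to 1.44) and EYA1 and LHX1 by 1.01 (0.737 to 1.38). SALL1 and PAX2 differed by 1.13 (0.476 to 2.71), so these neighbours could not be ordered. No such interval is given with the smaller read numbers, so the place of EYA1 depends on which are right. LHX1 was 6.32 times SALL1 (3.44 to 12.5). Whether intronic reads were counted is not given in the sources used here.

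**Figure D1:**
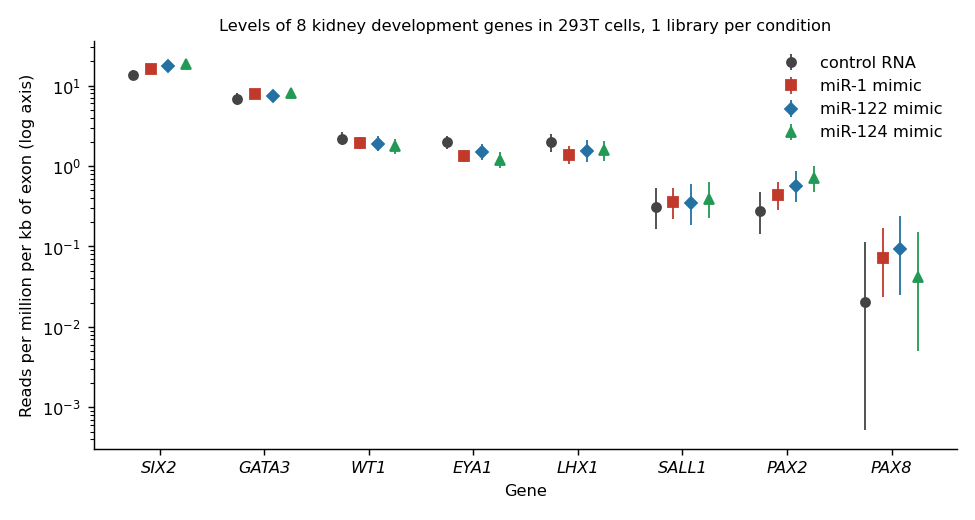
Reads per kilobase of exon, scaled to the library total as in FPKM (y axis, log scale), of the 8 genes in the 4 libraries, ordered by the control RNA library. Points are 1 library each and bars are exact Poisson 95% intervals of the reads, for counting error only. SIX2 lies near 13.7 and PAX8 near 0.0205 in the control RNA library.

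The ratio of a member in a mimic library to the control RNA library was then taken for the 7 members above 0.004 in both libraries, with no pseudocount. The 3 comparisons share the control RNA library, so that a value which is off there moves all of them. With each mimic, 1 of the 7, PAX2, was at least 1.5-fold higher. With miR-124 alone, 1 of the 7, EYA1, was at least 1.5-fold lower. Over all genes detected in both libraries, 8.37% were 1.5-fold higher and 13.6% lower with miR-1, 10.1% and 11.5% with miR-122, and 10.7% and 11.7% with miR-124. Counts of 0 or 1 of 7 genes are near these shares and are not a result about the members. Among genes with at least 50 reads in either library, which PAX2 did not reach, the shares were smaller, at 1.71% higher and 5.49% lower with miR-1, 1.57% and 3.03% with miR-122, and 2.31% and 3.9% with miR-124. The median log2 ratio of the 7 was 0.18, 0.12, and 0.23 in the same order, against -0.08, -0.01, and -0.03 over all detected genes.
By counting error, the 95% interval of the ratio was above 1 for 0, 1, and 2 of the 7 members in the same order, where 10.1%, 9.15%, and 10.9% of all genes were. It was below 1 for 1, 0, and 1 of the 7, where 16.7%, 11.2%, and 14.5% of all genes were. These intervals compare libraries, not conditions, and they cover counting error only.

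**Figure D2:**
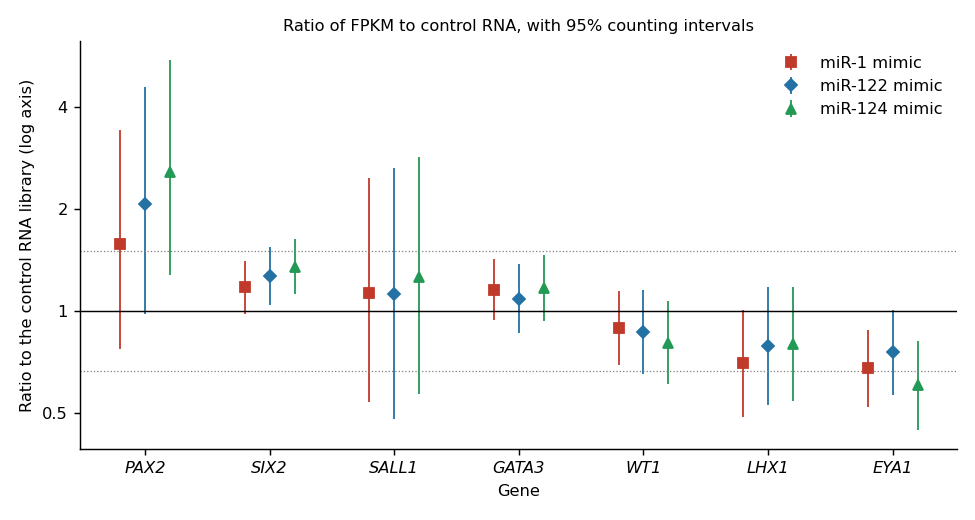
Ratio to the control RNA library (y axis, log scale) of the 7 genes above 0.004 in all libraries, for the 3 mimics. Bars are exact 95% counting intervals, the solid line marks 1 and the dotted lines 1.5-fold. All points of PAX2 lie above 1.5, from 1.58 to 2.56, and all points of EYA1 below 1, from 0.605 to 0.756.

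PAX2 had the highest ratios of the 7. They were 1.58 (0.772 to 3.42) with miR-1, 2.06 (0.978 to 4.57) with miR-122, and 2.56 (1.27 to 5.49) with miR-124. Only the miR-124 interval was clear of 1, and all 3 rested on the 12 reads of the control RNA library. With the reads of the mimic libraries summed to 79, a sum chosen after seeing the data, the ratio was 2.0 (1.08 to 4.03). To the mean of the other mimic libraries the ratio was 0.682 (0.410 to 1.10) with miR-1, 0.997 (0.608 to 1.73) with miR-122, and 1.41 (0.890 to 2.33) with miR-124, so the mimic libraries did not differ from each other beyond counting error. Here and below, such a ratio is to the unweighted mean FPKM of the other mimics. Its interval is from their summed reads, which weigh the larger library more, so it is not centred on that ratio. The match of the 7mer-A1 kind for miR-122 stands in the PAX2 3′ UTR, and PAX2 was not lower in that library.

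SIX2, the member with the most reads, had ratios of 1.17 (0.982 to 1.41) with miR-1, 1.27 (1.04 to 1.54) with miR-122, and 1.35 (1.12 to 1.63) with miR-124. For GATA3 they were 1.16 (0.942 to 1.42), 1.09 (0.863 to 1.37), and 1.17 (0.938 to 1.46). The size of the SIX2 difference from the control was thus larger than counting error with miR-122 and miR-124, and that of GATA3 was within it with all 3 mimics. To the mean of the other mimic libraries the SIX2 ratio was 0.897 (0.777 to 1.03) with miR-1, 1.00 (0.867 to 1.19) with miR-122, and 1.11 (0.963 to 1.30) with miR-124. For SIX2 no mimic library differed from the others beyond counting error. Its ratios to control all share the control RNA library. A value that is off there and a change common to the mimics cannot be told apart. SALL1, with 13 to 21 reads, had ratios of 1.13 (0.541 to 2.46), 1.13 (0.481 to 2.63), and 1.26 (0.569 to 2.85), and the intervals are too wide for a difference of 2-fold to be seen at this depth.

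EYA1 was the lowest of the 7 by its ratio with each mimic. The ratio was 0.678 (0.522 to 0.880) with miR-1, 0.756 (0.565 to 1.01) with miR-122, and 0.605 (0.445 to 0.816) with miR-124. With the smaller read numbers the interval with miR-124 would be 0.389 to 0.928 and that with miR-1 0.466 to 0.986. EYA1 is the member with an 8mer match of miR-124, GTGCCTTA, at chr8:71198485-71198492 on the minus strand, in a 3′ UTR of 3353 bases. GTGCCTTA was found in 3.59% of all genes. Of its 3 ratios that of EYA1 was lowest in the miR-124 library. To the mean of the other mimic libraries it was 0.843 (0.643 to 1.12) with miR-124, 0.996 (0.781 to 1.28) with miR-1, and 1.18 (0.889 to 1.52) with miR-122. The miR-124 library was therefore not apart from the other mimic libraries beyond counting error.

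LHX1, which acts in the duct and the early nephron, had ratios of 0.701 (0.488 to 1.01) with miR-1, 0.791 (0.528 to 1.18) with miR-122, and 0.800 (0.542 to 1.18) with miR-124. WT1 had ratios of 0.891 (0.695 to 1.14), 0.868 (0.653 to 1.15), and 0.808 (0.609 to 1.07). Both were below 1 throughout, and all of these intervals held 1. The miR-1 match of WT1 went with a ratio in the miR-1 library that was the highest of its 3. For PAX8, which carries matches of miR-1 and miR-122, the ratios on 1 control read were 3.50 (0.392 to 166) with miR-1, 4.50 (0.445 to 222) with miR-122, and 2.05 (0.107 to 121) with miR-124, and no direction can be read from them.

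PAX2 and EYA1, with the highest and the lowest ratios, also had the highest and the lowest GC content of the 7 members. SIX2 came next after PAX2 in both, while the members between did not follow GC content. The longest annotated transcript of PAX2 has a GC content of 63.6% and that of SIX2 61.5%, higher than 94.2% and 90.1% of detected genes. That of EYA1 has 42.2%, higher than 24.6% of detected genes. LHX1 (53.6%) was below 1 and GATA3 (53.7%) above it with each mimic, and WT1 (52.4%) was below 1 and SALL1 (50.2%) above it. Over genes with at least 200 reads in either library, the log2 ratio was higher at higher GC content, with a Pearson's r of 0.233 across 8872 genes for miR-1, 0.406 across 7637 for miR-122, and 0.709 across 7783 for miR-124, where genes of a library share its depth and are not independent. After the median log2 ratio of all such genes in the same decile of GC content was subtracted, the PAX2 ratios were 1.5, 1.88, and 2.05. Those of SIX2 were 1.13, 1.18, and 1.17, and those of EYA1 were 0.714, 0.817, and 0.697, the last no longer 1.5-fold lower. LHX1, at 53.6% GC, stood at 0.688, 0.767, and 0.778 after the subtraction and WT1 at 0.875, 0.841, and 0.785. GATA3 stood at 1.14, 1.06, and 1.14 and SALL1 at 1.14, 1.14, and 1.30, so all 7 members stayed on the same side of 1. No counting interval was taken after the subtraction, so whether the SIX2 ratios then stay beyond counting error was not tested. This subtraction was chosen after seeing the data, and the part of GC content in the ratios was not tested further.

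Genes annotated on the opposite strand overlap several members, and the strand setting of the counting is not given in the sources used here, so reads of such pairs cannot be told apart with certainty. ENSG00000276707, a long noncoding RNA gene inside LHX1 (chr17:36940049-36943456), had 8, 21, 8, and 12 reads in the order control RNA, miR-1, miR-122, and miR-124, against 64, 64, 45, and 50 for LHX1. GATA3-AS1 had 9, 15, 3, and 13 reads in the same order. WT1-AS, which overlaps WT1 by 47 bases, had 42, 63, 42, and 51 reads, or 0.0909, 0.0956, 0.102, and 0.113 FPKM. It was lowest in the control RNA library, where WT1 was highest. The WT1 intervals all held 1 and none is given for WT1-AS, so no opposite change can be read. PAX8-AS1 covers most of PAX8 and had 2, 5, 1, and 1 reads.

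Around the members, 109 further genes were examined in 5 lists. These were mesenchyme and progenitor factors, duct and nephron segment factors, kidney signals, and partners and paralogs of the members. The 20 partners and 24 paralogs are not all genes of kidney development, and they are included in the shares and the median below. Of the 109 genes, 94, 96, and 95 were above 0.004 in both libraries of the miR-1, miR-122, and miR-124 comparisons. At least 1.5-fold higher were 2, 3, and 7 of them (2.13%, 3.12%, and 7.37%), and 1.5-fold lower were 14, 12, and 7 (14.9%, 12.5%, and 7.37%). Counted in the same way, with no minimum of reads, all detected genes gave 8.37%, 10.1%, and 10.7% higher and 13.6%, 11.5%, and 11.7% lower. The shares of lower genes in the lists were near these with miR-1 and miR-122, and the shares of higher genes were smaller in all 3 comparisons. Among all genes with at least 50 reads in either library, 1.71%, 1.57%, and 2.31% were higher and 5.49%, 3.03%, and 3.9% lower. All of these lie below the shares in the lists, so the comparison depends on the background taken. The lists were not counted with that minimum, and no difference from all genes can be read from them. The median log2 ratio of the 5 lists together was -0.20, -0.10, and -0.03.

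Of 21 other mesenchyme, progenitor, and stroma factors, 20 were tested, and 0, 1, and 1 were 1.5-fold higher and 4, 2, and 0 lower with miR-1, miR-122, and miR-124. The highest in the control RNA library were CITED2, a transcriptional coregulator, at 38 FPKM and FOXC1, a forkhead factor, at 30.5. HOXD11, a homeobox gene that patterns the metanephric mesenchyme, had 4.25, 2.60, 4.08, and 5.45 FPKM in the order control RNA, miR-1, miR-122, and miR-124. Its ratios were 0.611 (0.482 to 0.774), 0.959 (0.755 to 1.22), and 1.28 (1.03 to 1.59), with miR-1 and miR-124 on opposite sides of 1. FOXD1, the forkhead factor of the renal stroma, stood at 0.787 (0.693 to 0.893), 1.08, and 1.43 (1.27 to 1.62). FOXC2 stood at 0.701 (0.423 to 1.16), 1.29 (0.794 to 2.11), and 1.24 (0.765 to 2.01). EYA4, a paralog of EYA1, stood at 0.691 (0.585 to 0.816), 0.740 (0.613 to 0.891), and 0.688 (0.571 to 0.827), and EYA3 at 0.967, 0.884, and 0.877. EYA2, of the same family, was above 1 in point value, at 1.12 (0.896 to 1.41), 1.04 (0.804 to 1.34), and 1.04 (0.810 to 1.34). EYA2, EYA3, and EYA4 were named after their values were seen. Their longest transcripts have 57.0%, 46.1%, and 38.3% GC, and those of HOXD11, FOXD1, and FOXC2 have 62.6%, 66.6%, and 63.2%. The ratios of these genes are without the GC subtraction, and the part of GC content in them was not tested.

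Of 22 duct and nephron segment factors, 16, 16, and 15 were tested, with 2, 2, and 3 that were 1.5-fold higher and 2, 2, and 1 lower. HNF4A had 1 read in the miR-1 library and none elsewhere, and IRX1, IRX2, TFAP2B, and GRHL2 were at 0 in all 4 libraries. HES1 and HEY1, targets of Notch signalling, were highest in the control RNA library at 28.8 and 26.3 FPKM. SOX9, which acts in the ureteric tip, had 3.94 FPKM with the control RNA and 1.78, 2.39, and 2.41 with the mimics. Its ratio was 0.452 (0.344 to 0.593) with miR-1, 0.607 (0.453 to 0.807) with miR-122, and 0.610 (0.460 to 0.805) with miR-124, each 1.5-fold lower. POU3F3, a POU factor of the loop of Henle, stood at 0.873 (0.790 to 0.965), 1.10, and 1.62 (1.48 to 1.79). SOX8 was at 1.03, 0.743 (0.574 to 0.959), and 1.58 (1.29 to 1.95). The longest transcripts of POU3F3 and SOX8 have 62.0% and 63.8% GC, as high as that of PAX2 (63.6%) or nearly so.

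Of 22 genes of kidney signalling, 20 were tested, with 0, 0, and 1 that were 1.5-fold higher and 3, 3, and 4 lower. GDNF, the ligand that draws out the ureteric bud, had 0.609 FPKM with the control RNA and 0.623, 0.704, and 0.785 with the mimics, and its receptor RET had 0.108 with the control RNA. The ratio of GDNF was 1.02 (0.796 to 1.32), 1.16 (0.880 to 1.52), and 1.29 (0.994 to 1.67). CTNNB1, beta-catenin, and BMP4 were the highest of the list in the control RNA library at 4.21 and 2.36 FPKM. JAG1, a Notch ligand, stood at 0.645 (0.561 to 0.743) with miR-1, 0.695 (0.592 to 0.813) with miR-122, and 0.858 (0.742 to 0.991) with miR-124. BMP4 stood at 0.716 (0.563 to 0.909), 0.782, and 1.00, and SPRY1, an inhibitor of RET signalling, at 0.930, 0.593 (0.365 to 0.947), and 0.931. GDNF and RET were named as the ligand and receptor of the pathway after their values were seen.

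Of 20 protein partners of the members, 19 were tested, and 0, 0, and 1 were 1.5-fold higher and 1, 2, and 0 lower. MTA2 and CHD4, subunits of the NuRD complex that SALL1 recruits, were highest in the control RNA library at 30.5 and 12.4 FPKM, with ratios between 0.829 and 0.979. MTA1 of the same complex stood at 1.13 (1.05 to 1.22), 1.16 (1.07 to 1.27), and 1.25 (1.16 to 1.36). RLIM, a ligase that acts on LIM factor cofactors, stood at 0.857, 0.810, and 0.710 (0.640 to 0.787), and TLE3, a Groucho corepressor, at 0.920, 0.958, and 1.22 (1.11 to 1.35). Of 24 paralogs of the members, 19, 21, and 21 were tested, with 0, 0, and 1 that were 1.5-fold higher and 4, 3, and 2 lower. SIX5 (14.3 FPKM) and GATA2 (5.82 FPKM) were highest in the control RNA library. SIX5 stood at 1.08, 1.03, and 1.35 (1.18 to 1.53), SALL3 at 1.04, 0.914, and 1.37 (1.11 to 1.69), and PAX1 at 1.33 (1.01 to 1.76), 1.02, and 0.962. The longest transcripts of MTA1, SIX5, and SALL3 have a higher GC content than that of SIX2 (61.5%). That of RLIM has a lower one than that of EYA1 (42.2%), and those of TLE3 and PAX1 lie between. The ratios of genes named from the 5 lists are without the GC subtraction, and the part of GC content in them was not tested.

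Among 8883 genes with a mean of at least 1 FPKM, the gene whose 3 log2 ratios were nearest to those of SIX2 was ENSG00000267598, with a root mean square difference of 0.013. For LHX1 it was CXorf38 at 0.012 and for GATA3 EIF6 at 0.0098. These likenesses rest on 3 ratios that share 1 control library.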

How the data were processed

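RNA of 4 libraries of 293T cells was compared, 1 per condition. The authors trimmed and masked single-end reads, aligned them to GRCh38 (HISAT2 2.0.0, with base calls by CASAVA 1.8, per the submitters' processing notes), and deposited FPKM values, 1 per gene and library. The counting program and annotation are not given in the sources used here. Of 58243 gene identifiers 57532 matched GENCODE release 44, from which symbols, positions, exons, and 3′ UTRs were taken. The divisor of each library was recovered from products of value and annotated gene length that were whole reads (tolerance 1e-05). Each member's length was the whole number, up to 3 times the annotated distance, that made its reads whole in all 4 libraries and lay nearest to that distance. Ratios used values above 0.004 in both libraries. A 95% interval of a ratio came from the share of reads held by 1 library (exact Clopper-Pearson), rescaled by the divisors. Reads without molecular identifiers are not independent molecules, so intervals cover counting error only. For shares over all genes, reads were taken at the annotated distance.

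The members and lists were chosen with earlier results of these data known. Named genes were all members, and from each list the 3 with the largest log2 ratio among those with a mean FPKM of at least 1 and the 2 highest in the control RNA library, with antisense partners and the gene most like a member in its ratios. As alternatives, pseudocounts of 1 and 0.1 were tried, as were the other mimics' mean as reference, centring, a minimum mean of 1, a fold of 2, exon length, and the 3′ UTR of 1 representative transcript. The steps were tested on simulated data. The software was scipy 1.17.1 and numpy 2.4.6 with pandas 2.3.3 under Python 3.11.15, and matplotlib 3.10.9 for plots. Values of some list genes are not reported here.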

Additional observations from a re-analysis of the deposited data

How the results depend on the processing

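No paired analysis was possible because a condition is held by 1 library alone, and for the same reason no replicate could be left out. The subtraction of the GC median, the summed mimic libraries, and the smaller reads of EYA1 were chosen after seeing the data. The median log2 ratio of the members with miR-1 turned to -0.04 against the mean of the other mimics, and with a pseudocount of 1 the 3 medians were 0.02, 0.02, and 0.04. With a pseudocount of 1 or of 0.1, or a mean FPKM of at least 1, 0 members were 1.5-fold higher or lower with any mimic. Against the mean of the other mimics 0 members were 1.5-fold higher with miR-1 or miR-124, and the log2 ratio of PAX2 turned to -0.55 with miR-1 and to -0.0043 with miR-122. With a fold of 2, 0 members were past it in either direction with miR-1, and 0 were lower with miR-124, as also after the GC subtraction. Of the 5 lists around the members, 14 genes were 1.5-fold lower with miR-1. There were 1 with a pseudocount of 1, 7 with 0.1, 3 with a mean of at least 1, and 5 with a fold of 2. The 2 higher were 0 with either pseudocount or a mean of at least 1, and 1 with the other reference or a fold of 2. With miR-122, 12 lower became 0, 4, 2, and 4 under these and 5 with the other reference, and 3 higher became 0 with a pseudocount of 1, a mean of at least 1, or a fold of 2. With miR-124, 7 higher became 1 and 2 with the pseudocounts, 2 with a mean of at least 1, 2 with a fold of 2, 11 with the other reference, and 4 after the GC subtraction. The 7 lower became 0 and 1 with the pseudocounts, 1 with the other reference, a mean of at least 1, or a fold of 2, and 3 after the GC subtraction. A minimum mean and a larger fold leave fewer genes to count, and a pseudocount shrinks the ratio of low genes by its construction. Per kilobase of exon the places of GATA3, WT1, EYA1, LHX1, and SALL1 were 2, 3, 4, 5, and 6. Members with a seed word were the same in number with the representative transcript.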
